A study of Mus musculus with 20 samples.

Results

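The 10 genes described here mark macrophages and were followed through whole mouse adrenal glands sequenced from both sexes, with and without a label of Bmal1 deletion. They are Adgre1, Csf1r, Cd68, Lyz2, Mrc1, Cd163, Trem2, Gpnmb, Spp1 and Itgax, taken by symbol as 10 of the 47729 genes of the deposited table, and each was matched to 1 row. The study asked what inactivation of BMAL1 changes in female and in male adrenals. There were 5 control females aged 3.4, 2.7, 2.7, 1.5 and 1.5 months, and 5 females labelled Bmal1 KO aged 3.4, 2.7, 2.6, 2.4 and 2.4 months. The 6 control males were 4.7, 4.6, 3.7, 3.1, 2.9 and 2.9 months old, and the 4 males labelled Bmal1 KO were 3.7, 3.3, 2.9 and 2.9 months old. Libraries are numbered within their group in this order. The genotype labels are SCC::Cre_CTRL and SCC::Cre_BMAL1 KO, so every group, controls included, carries the Cre driver SCC::Cre. P450scc, the side-chain cleavage enzyme encoded by Cyp11a1, is an enzyme of steroid-making cortex cells, so macrophages are not the cells the driver is named for. Strain, litter, collection time and the deleted exons are not named in the labels.

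Macrophages are phagocytes that settle in nearly every organ, survive on signalling through the CSF1 receptor, and clear dying cells. In the adrenal they lie among steroid-making cells that store cholesterol in lipid droplets. Macrophages loaded with lipid, in fat, arteries and other tissues, are known to turn on a set of genes led by the lipid receptor Trem2, the membrane glycoprotein Gpnmb and the secreted glycoprotein osteopontin, encoded by Spp1. Resident macrophages of many organs carry instead the scavenger receptors encoded by Mrc1 and Cd163.

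Between 13421985 and 26742820 reads were recovered per library. The values are normalised read counts, that is reads divided by 1 size factor per library. Arntl, the gene symbol of Bmal1, lay between 494 and 860 in control females, 833 and 1010 in females labelled Bmal1 KO, 365 and 1092 in control males, and 841 and 995 in males labelled Bmal1 KO. The count of the targeted gene was thus not lower under the KO label, and whether the reads fall in the deleted part cannot be read from a count per gene. Cry1, a clock gene of the repressing arm, ranged from 122 to 237 in the controls of both sexes and from 1140 to 2137 in the libraries labelled Bmal1 KO. The labels do not state that libraries of the same age are from different animals, so p-values reflect the spread among the libraries as sampled, part of which may be technical.

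All 10 macrophage genes had a value of at least 1 in each of the 20 libraries and entered the test. Of their 200 values, 1 rested on fewer than 3 reads, the number taken as the floor of detection. The defining macrophage genes of the label were therefore present in every library. Library control female 5, from 1 of the 1.5-month animals, stood apart upward for Lyz2, Csf1r and Cd163, and library Bmal1 KO female 1, of 3.4 months, stood apart upward for Gpnmb and Trem2. Differences of these genes in the comparisons that hold those libraries are given with and without them where the genes are described. In whole tissue, fewer macrophages and less RNA of a gene per macrophage cannot be told apart.

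The 3 promoters shown here belong to the 2 genes that passed the test of a genotype comparison, Mrc1 and Gpnmb, and to Spp1, the gene with the largest sex difference among the 10, which was added after its values were seen. Each runs from 250 bases before to 50 bases after a RefSeq start site on GRCm38.p6 and is read 5′ to 3′ on the plus strand, with matches in capitals. A RefSeq promoter was found for 8 of the 10 genes, and Adgre1 and Csf1r are named only.
Gpnmb, chr6:49036268-49036567: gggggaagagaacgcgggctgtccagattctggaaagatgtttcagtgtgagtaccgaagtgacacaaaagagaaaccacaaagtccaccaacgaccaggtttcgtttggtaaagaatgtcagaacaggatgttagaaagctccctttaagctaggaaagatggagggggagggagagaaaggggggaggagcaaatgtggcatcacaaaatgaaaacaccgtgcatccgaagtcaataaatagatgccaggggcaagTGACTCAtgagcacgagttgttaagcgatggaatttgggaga
Mrc1, chr2:14229164-14229463: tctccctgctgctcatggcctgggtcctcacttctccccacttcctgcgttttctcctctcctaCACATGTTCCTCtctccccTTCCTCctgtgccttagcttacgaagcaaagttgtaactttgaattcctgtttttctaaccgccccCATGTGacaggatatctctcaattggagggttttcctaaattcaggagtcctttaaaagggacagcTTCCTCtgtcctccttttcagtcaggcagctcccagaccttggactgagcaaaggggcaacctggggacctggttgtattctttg
Spp1, chr5:104434861-104435160, the first of 2 start sites in the table: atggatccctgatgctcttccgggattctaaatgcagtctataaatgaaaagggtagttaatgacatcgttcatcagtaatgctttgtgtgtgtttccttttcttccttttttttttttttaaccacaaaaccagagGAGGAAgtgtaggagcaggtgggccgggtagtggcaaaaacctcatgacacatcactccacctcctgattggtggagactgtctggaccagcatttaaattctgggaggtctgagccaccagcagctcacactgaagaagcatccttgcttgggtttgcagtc

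The motifs searched on both strands were CACGTG, the E-box bound by CLOCK and BMAL1, CATGTG, an E-box form that MITF binds, TGANTCA, the AP-1 motif, and GAGGAA, the core of PU.1 sites in myeloid genes. Among 32851 promoters of the same length they occurred in 7.15%, 14.2%, 7.81% and 28.3%. The Gpnmb promoter held TGACTCA, a match to TGANTCA, from position 9 after the start site. The Mrc1 promoter held CATGTG from position -101 and its reverse complement CACATG from position -186, directly followed by TTCCTC from -180, the reverse complement of GAGGAA. It also held TTCCTC from -167 and -35. The Spp1 promoter held GAGGAA from -113. CACGTG is not in these 3 windows, and the second Spp1 window held none of the 4 motifs. A match is a description of letters and shows no binding.

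Among the 10 genes, per kilobase of exon, Lyz2 had the highest level in all 4 groups. This gene encodes the lysozyme of macrophages and other myeloid cells, and its mean level per kb was 6485 normalised reads for control and 5914 for labelled KO females, against 2397 for control and 2700 for labelled KO males. Spp1 came second in females, with mean levels of 728 and 1021 normalised reads per kb in control and labelled KO, but lower down in males, at 57.1 in controls and 89.8 in the labelled KO. Cd68 and Csf1r held the next places in females, with mean levels of 426 and 200 normalised reads per kb in controls. Cd163 was lowest in 3 groups, at mean levels from 2.12 to 4.75 normalised reads per kb, and Gpnmb was lowest in control males at 3.55. Between control females and control males Spp1 moved from place 2 to place 6 in this order, and each of the other genes moved by at most 1 place.

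**Figure D1:**
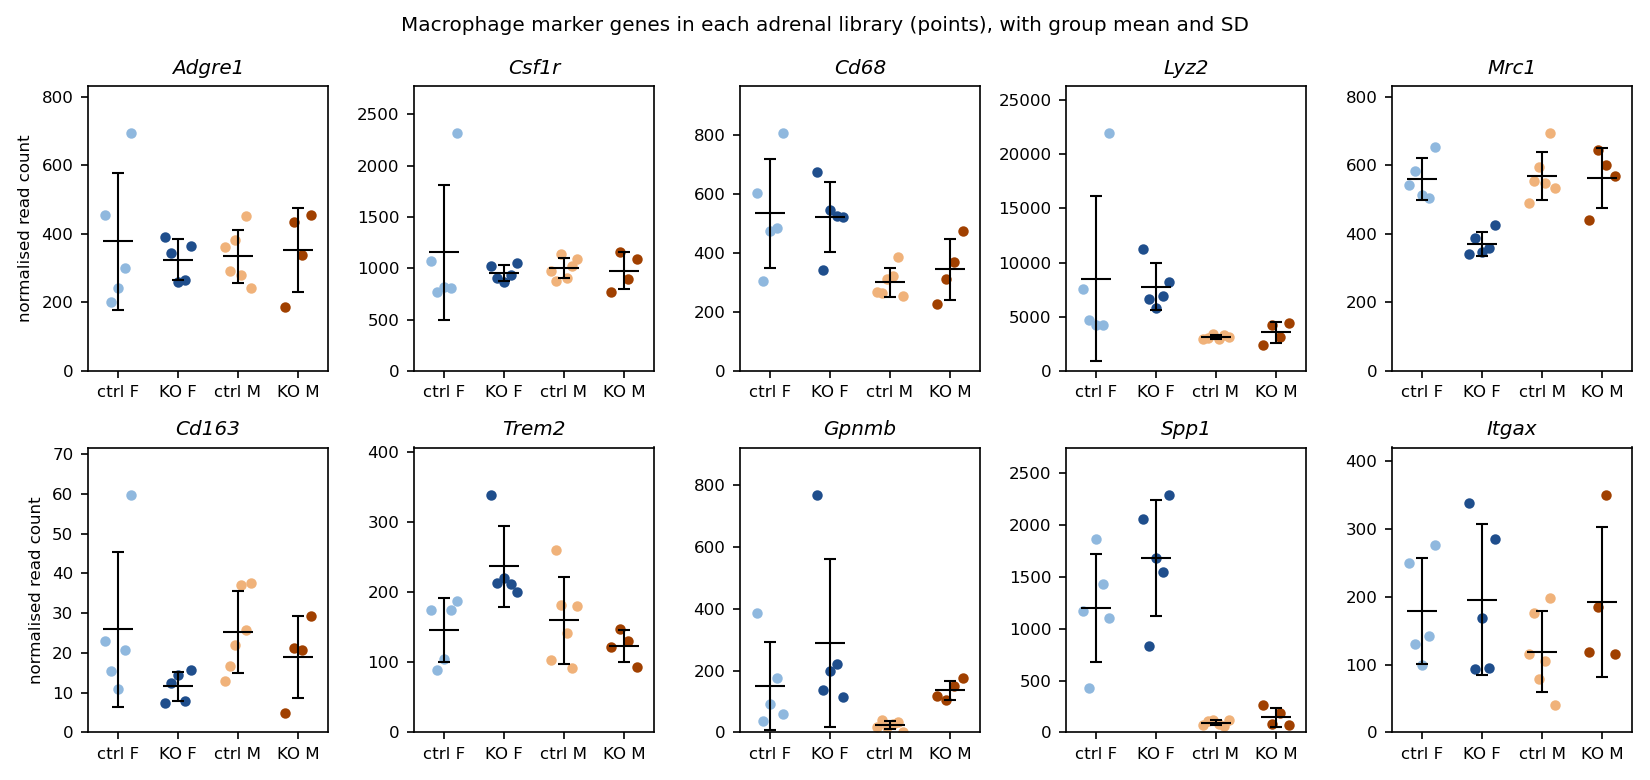
Normalised read count (vertical axes, linear from 0) of the 10 macrophage genes in every library (points), by group, with the mean and SD of each group (ctrl, control; KO, labelled Bmal1 KO; F, female; M, male). The 10 female values of Spp1 lie between 428 and 2292, above the 10 male values between 64.1 and 261; the 5 Mrc1 values of females labelled Bmal1 KO lie below all other Mrc1 values; and the control male values of Gpnmb lie between 2.21 and 38.7.

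The 2 genes that mark macrophages as a class, Adgre1 and Csf1r, gave no call in any comparison, meaning no adjusted p under 0.05. Adgre1 (chr17:57358691-57483527, plus strand, GRCm38), which encodes the F4/80 antigen, read 454, 202, 242, 302 and 693 in control females and 391, 344, 259, 266 and 365 in females labelled Bmal1 KO. In males it ranged from 241 to 453 in controls, with a median of 326, and read 186, 433, 339 and 455 in the labelled KO. The 4 groups overlapped. Its difference between labelled KO and control was -0.09 ± 0.28 (SE) on the log2(value + 1) scale in females and 0.03 ± 0.29 in males, with adjusted p = 0.954 and 0.987 from limma over all genes. Csf1r (chr18:61100598-61132149, plus strand), which encodes the receptor for the macrophage growth factors CSF1 and IL-34, read 1074, 772, 821, 803 and 2313 in control females and 1025, 907, 867, 934 and 1048 in females labelled Bmal1 KO. Control males ranged from 880 to 1135 with a median of 998, and labelled KO males read 768, 1162, 896 and 1087. Apart from control female 5, all Csf1r values lay within the same band in the 4 groups. The log2 difference by genotype was -0.14 ± 0.21 in females (adjusted p = 0.887), 0.15 without control female 5 (adjusted p = 0.716), and -0.05 ± 0.21 in males (adjusted p = 0.973). Female minus male differences of both genes in controls were 0.06 ± 0.27 for Adgre1 and 0.07 ± 0.20 for Csf1r, with adjusted p = 0.898 and 0.836. Without control female 5 that of Csf1r was -0.21 (adjusted p = 0.200).

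Cd68 and Lyz2, which encode a lysosomal membrane glycoprotein of phagocytes and a secreted bacterial cell wall enzyme, were higher in control females than in control males and passed no test by genotype. Cd68 (chr11:69664213-69666153, minus strand) read 605, 306, 474, 485 and 806 in control females and 674, 344, 546, 524 and 522 in females labelled Bmal1 KO. In males it ranged from 254 to 386 in controls, with a median of 289, and read 226, 313, 368 and 474 in the labelled KO. Most female values lay above the male ones, although the ranges overlapped in both genotypes. The female minus male difference of Cd68 on the log2 scale was 0.77 ± 0.21 in controls (adjusted p = 0.0101) and 0.61 ± 0.24 in the labelled KO (adjusted p = 0.0672), which missed the threshold. It passed there by DESeq2 (adjusted p = 0.0496), without Bmal1 KO female 2 (0.0263) and without Bmal1 KO male 4 (0.0306). By genotype the difference was 0.00 ± 0.22 in females and 0.16 ± 0.23 in males.

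Lyz2 (chr10:117277331-117282321, minus strand) read 7555, 4666, 4238, 4286 and 21925 in control females and 11276, 6615, 5847, 6930 and 8249 in females labelled Bmal1 KO. Control males lay between 2957 and 3432 with a median of 3094, and labelled KO males read 2421, 4224, 3114 and 4453. In both genotypes every female library was above every male library. The female minus male difference was 1.10 ± 0.31 in controls, or 2.14-fold (adjusted p = 0.0105), and 1.13 ± 0.34 in the labelled KO, or 2.19-fold (adjusted p = 0.0188). Without control female 5 the difference in controls was 0.68 (adjusted p = 0.0118). The call in the labelled KO was lost without Bmal1 KO male 1 (adjusted p = 0.0663) or male 3 (0.0506). Lyz2 has a near-identical neighbour, Lyz1, and how the counting shared reads between them is not stated, so the split is uncertain. By genotype the log2 difference of Lyz2 was 0.17 ± 0.32 in females (0.59 without control female 5, adjusted p = 0.170) and 0.13 ± 0.33 in males.

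Age moved with sex in the controls, since the 2 youngest libraries were female and the 2 oldest male. Ages also differed by genotype, from 1.5 to 3.4 months in control females and 2.4 to 3.4 in labelled KO females. In males they ran from 2.9 to 4.7 months in controls and from 2.9 to 3.7 in the labelled KO. With age as a covariate the sex difference of Cd68 in controls was 0.55 (adjusted p = 0.190) and that of Lyz2 was 0.89 (adjusted p = 0.144). Among libraries of 2.4 to 3.7 months they were 0.50 (adjusted p = 0.235) and 0.71 (adjusted p = 0.0509). The direction held in both and the calls of these 2 genes were lost.

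Mrc1, the mannose receptor CD206 of resident and alternatively activated macrophages, fell in the females labelled Bmal1 KO. Mrc1 (chr2:14229392-14332057, plus strand) read 544, 585, 513, 504 and 654 in control females and 340, 389, 347, 358 and 425 in females labelled Bmal1 KO. Control males ranged from 491 to 693, with a median of 552, and labelled KO males read 440, 644, 602 and 569. The females labelled Bmal1 KO lay below every library of the other 3 groups, which overlapped one another. Their mean was 372 ± 35.1 (SD, n = 5) against 560 ± 61.4 (n = 5) for female controls, 570 ± 69.6 (n = 6) for male controls and 564 ± 88.1 (n = 4) for males labelled Bmal1 KO. The log2 difference was -0.59 ± 0.11 in females, 1.50-fold lower (adjusted p = 0.00457), and it passed in 22 of 22 alternatives, between -0.64 and -0.53. In males it was -0.02 ± 0.11 (adjusted p = 0.979). The test of the difference between the 2 effects gave -0.57 ± 0.16 (adjusted p = 0.339, and 0.0869 to 0.647 over alternatives), so the effects of the 2 sexes were not shown to differ. Mrc1 is also made by some endothelial cells, and the summed level of 8 endothelial genes lay between 12407 and 13508 in control females and between 13001 and 15644 in females labelled Bmal1 KO, with none called by genotype in females (1 at an unadjusted p under 0.05, 0 by edgeR or DESeq2). Between the sexes Mrc1 was lower in females among the labelled KO, by -0.59 ± 0.12 (adjusted p = 0.000776), and differed by -0.02 ± 0.10 in controls (adjusted p = 0.907). Of the 8 endothelial genes, Flt4 (-0.48 ± 0.11), Tek (-0.40 ± 0.12) and Kdr (-0.29 ± 0.10) were also lower and Prox1 (0.65 ± 0.08) higher in females among the labelled KO. In controls, where Mrc1 was not called, Flt4 (-0.37 ± 0.10) and Tek (-0.37 ± 0.11) were lower and Prox1 (0.51 ± 0.08) higher. The part of endothelial cells in the Mrc1 values was not tested.

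Cd163 (chr6:124304656-124330527, plus strand), the scavenger receptor for haemoglobin bound to haptoglobin, was the scarcest of the 10 genes. It read 22.9, 15.5, 10.8, 20.8 and 59.7 in control females and 7.47, 12.5, 14.4, 7.86 and 15.6 in females labelled Bmal1 KO. Control males ranged from 12.8 to 37.6, with a median of 23.8, and labelled KO males read 4.78, 21.3, 20.6 and 29.1. These ranges overlapped. The log2 difference by genotype was -0.91 ± 0.45 in females (adjusted p = 0.451), -0.56 without control female 5 (adjusted p = 0.702), and -0.53 ± 0.46 in males (adjusted p = 0.761). Female minus male in controls it was -0.11 ± 0.43 (adjusted p = 0.891), and -0.46 without control female 5 (adjusted p = 0.476).

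Of the genes of lipid-laden macrophages, Gpnmb passed the test by genotype, in males, and Trem2, Spp1 and Itgax did not in either sex. Gpnmb (chr6:49036546-49070929, plus strand), a membrane glycoprotein tied to lysosomes under lipid load, rose in the males labelled Bmal1 KO. Control males read 17.8, 38.7, 19.1, 26.2, 34.8 and 2.21, the last from 2 reads, and labelled KO males read 119, 106, 149 and 175. Control females read 388, 36.1, 92.7, 175 and 58.7, and females labelled Bmal1 KO read 769, 138, 198, 222 and 114. In males the 2 genotypes did not overlap, and in females they did, with the 2 animals of 3.4 months the highest of their groups.

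In males the log2 difference of Gpnmb was 2.83 ± 0.66, 7.14-fold on the value + 1 scale (adjusted p = 0.0313), and 2.32 (adjusted p = 0.0330) without control male 6. The call held in 13 of 22 alternatives, at log2 differences from 2.21 to 3.12. It was lost with limma-voom (adjusted p = 0.108), among libraries of 2.4 to 3.7 months (0.0736), with a replicate block (0.0514), without control male 1 (0.0545) or 3 (0.0573), and without Bmal1 KO male 1 (0.0662), 2 (0.0638), 3 (0.0918) or 4 (0.109). In females the log2 difference was 1.05 ± 0.64 (adjusted p = 0.582), or 0.61 without Bmal1 KO female 1 (adjusted p = 0.804) and 1.52 without control female 1 (adjusted p = 0.293). The test of the difference between the sexes' effects gave -1.78 ± 0.92 (adjusted p = 0.815), and -2.23 without Bmal1 KO female 1 (adjusted p = 0.733). Gpnmb was also higher in control females than in control males, by 2.50 ± 0.62 or 5.65-fold (adjusted p = 0.00454), with 1 female value, 36.1, inside the male range. That call held in 23 of 23 alternatives, age as a covariate included. In the labelled KO the sex difference was 0.72 ± 0.68 (adjusted p = 0.495), and 0.27 without Bmal1 KO female 1 (adjusted p = 0.819). Ordered by mean, control males (23.1 ± 13.2) came first, then labelled KO males (137 ± 31.0), control females (150 ± 143) and labelled KO females (288 ± 272), and the last 3 overlapped.

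Trem2 (chr17:48346401-48354147, plus strand), the lipid-sensing receptor of these macrophages, read 175, 89.6, 104, 175 and 188 in control females and 339, 213, 220, 212 and 201 in females labelled Bmal1 KO. Control males ranged from 92.5 to 261, with a median of 161, and labelled KO males read 122, 147, 130 and 92.8. All 5 females labelled Bmal1 KO lay above all 5 control females, and above all 4 males labelled Bmal1 KO. By genotype in females the log2 difference of 0.73 ± 0.26 did not pass (adjusted p = 0.204, and 0.0966 to 0.410 over 22 alternatives), and it was 0.59 without Bmal1 KO female 1 (adjusted p = 0.395). In males it was -0.31 ± 0.26 (adjusted p = 0.751), and the difference between the 2 effects was 1.03 ± 0.37 (adjusted p = 0.599), or 0.90 without Bmal1 KO female 1 (adjusted p = 0.747). Among the labelled KO, Trem2 was higher in females by 0.93 ± 0.27 or 1.91-fold (adjusted p = 0.0169), and by 0.80 without Bmal1 KO female 1 (adjusted p = 0.0477). That call was lost without Bmal1 KO male 4 (adjusted p = 0.0647). In controls the sex difference was -0.10 ± 0.25 (adjusted p = 0.804).

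Spp1 (chr5:104435118-104441050, plus strand), whose product osteopontin binds integrins and CD44, had the largest sex difference of the 10 genes in both genotypes. It read 1171, 428, 1864, 1434 and 1104 in control females and 2056, 830, 1683, 1552 and 2292 in females labelled Bmal1 KO. Control males ranged from 64.1 to 122, with a median of 96.3, and labelled KO males read 261, 79.7, 184 and 68.0. The lowest female library stood above the highest male library. The female minus male difference was 3.56 ± 0.37 in controls, 11.8-fold (adjusted p = 3.40e-07), and 3.64 ± 0.40 in the labelled KO, 12.4-fold (adjusted p = 1.12e-06), and both passed in all alternatives, 23 and 21. By genotype the differences were 0.56 ± 0.38 in females (adjusted p = 0.634) and 0.48 ± 0.39 in males (adjusted p = 0.734), with overlapping ranges. Osteopontin is also made by cells other than macrophages, and a whole gland does not show which cells held the RNA.

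Itgax (chr7:128129547-128150657, plus strand), which encodes CD11c of dendritic cells and of lipid-laden macrophages, gave no call. Control females read 250, 131, 99.9, 141 and 276 and females labelled Bmal1 KO read 337, 93.2, 168, 94.3 and 284. Control males lay between 39.8 and 198, with a median of 110, and labelled KO males read 119, 185, 350 and 115. The 4 groups overlapped. The log2 difference by genotype was 0.03 ± 0.44 in females (adjusted p = 0.999) and 0.71 ± 0.45 in males (adjusted p = 0.623).

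**Figure D2:**
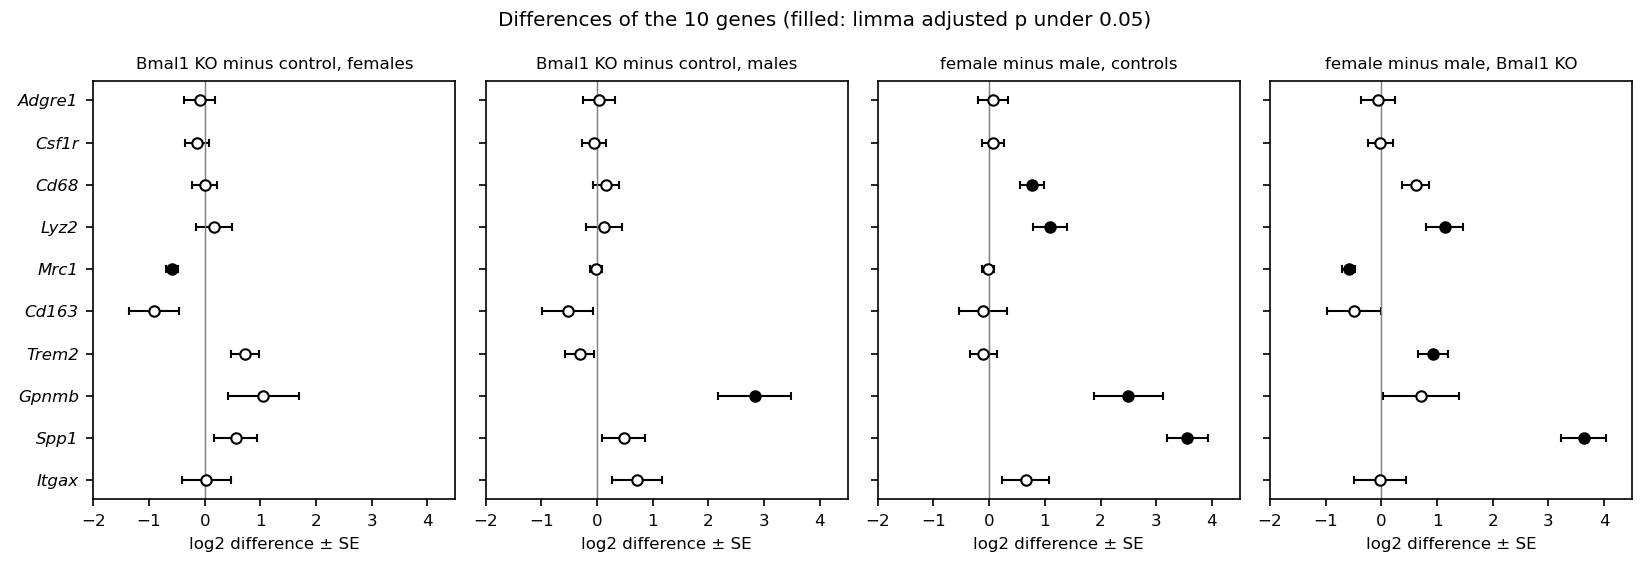
Log2 difference with its SE (horizontal axes, log2(value + 1) scale) of the 10 genes in 4 comparisons; filled points passed an adjusted p of 0.05 in limma. Mrc1 is the filled point in females by genotype, at -0.59, and Gpnmb the one in males, at 2.83, while Spp1 lies at 3.56 and 3.64 in the comparisons of the sexes.

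Counted together, 1 of 10 genes passed by genotype in females, Mrc1, which was lower, where 1.75% of all 26612 genes tested passed, 1.12% higher and 0.635% lower. In males 1 of 10 passed, Gpnmb, which was higher, where 1.33% of all genes passed, 0.763% higher and 0.567% lower. None passed the test of the difference between the sexes' effects in limma, edgeR or DESeq2, against 0.0301% of all genes in limma, and 2 of the 10, Mrc1 and Trem2, had an unadjusted p under 0.05. By sex in controls 4 passed, all higher in females, namely Spp1, Gpnmb, Cd68 and Lyz2, where 26.4% of all genes passed, 13.5% higher and 12.9% lower. In the labelled KO 3 were higher in females, Spp1, Lyz2 and Trem2, and 1 lower, Mrc1, where 22.8% of all genes passed, 12.1% higher and 10.6% lower. Since differences between the sexes were this common among all genes, a count of 4 among 10 is no result about the macrophage genes as a group. The median log2 difference of the 10 was 0.02 by genotype in females and 0.08 in males, beside medians of 0 and 0.00 over all genes, and 0.37 and 0.30 by sex in controls and in the labelled KO, beside -0.05 and -0.07. The 2 genotype comparisons share no libraries with each other. Each sex comparison shares 1 of its 2 groups with each genotype comparison, so the directions of sex and genotype comparisons are not independent.

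**Figure D3:**
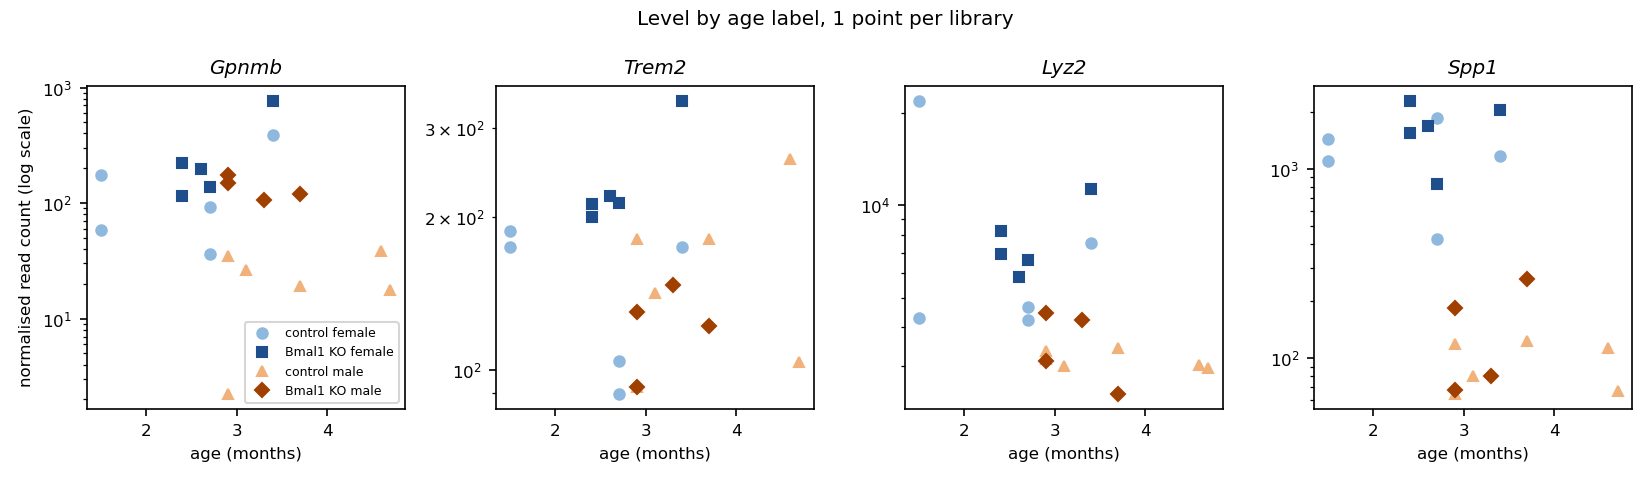
Normalised read count (vertical axes, log scale) of Gpnmb, Trem2, Lyz2 and Spp1 against the age label in months, 1 point per library, with groups by colour and shape. The highest Gpnmb values, 769 and 388, are the 2 females of 3.4 months; the highest Lyz2 value, 21925, is a control female of 1.5 months; and every female Spp1 value lies above every male one.

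Across the 20 libraries, with each group's mean subtracted, Adgre1, Csf1r and Lyz2 varied together from gland to gland, and Cd68 varied with Adgre1. Of 45 pairs, 4 passed by both Pearson and Spearman permutation tests, adjusted over the 45. Csf1r and Lyz2 had r = 0.958 and rho = 0.893 (permutation p adjusted to 0.00135 and 0.0018), and r = 0.888 without the 2 libraries farthest from the median of Csf1r. Adgre1 with Lyz2 had r = 0.829 and rho = 0.827 (permutation p adjusted to 0.00135 and 0.0027), and r = 0.761 without the 2 farthest. The other two pairs also held Adgre1. With Csf1r it had r = 0.810 and rho = 0.761 (permutation p adjusted to 0.00735 and 0.0132, r = 0.734 without the 2 farthest), and with Cd68 r = 0.763 and rho = 0.692 (permutation p adjusted to 0.0165 and 0.0453, r = 0.616). Cd68 did not pass with Csf1r (r = 0.648, permutation p adjusted to 0.0639) or with Lyz2 (r = 0.697, permutation p adjusted to 0.0582). No pair with Gpnmb, Trem2, Spp1, Itgax, Mrc1 or Cd163 passed. Over the 45 pairs r ran from -0.41 to 0.96 with a median of 0.36, and 36 were above 0. Pairs that passed numbered 7 without control female 2 and 9 without Bmal1 KO female 1, and 4 without control female 5, the library high in Lyz2 and Csf1r.

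**Figure D4:**
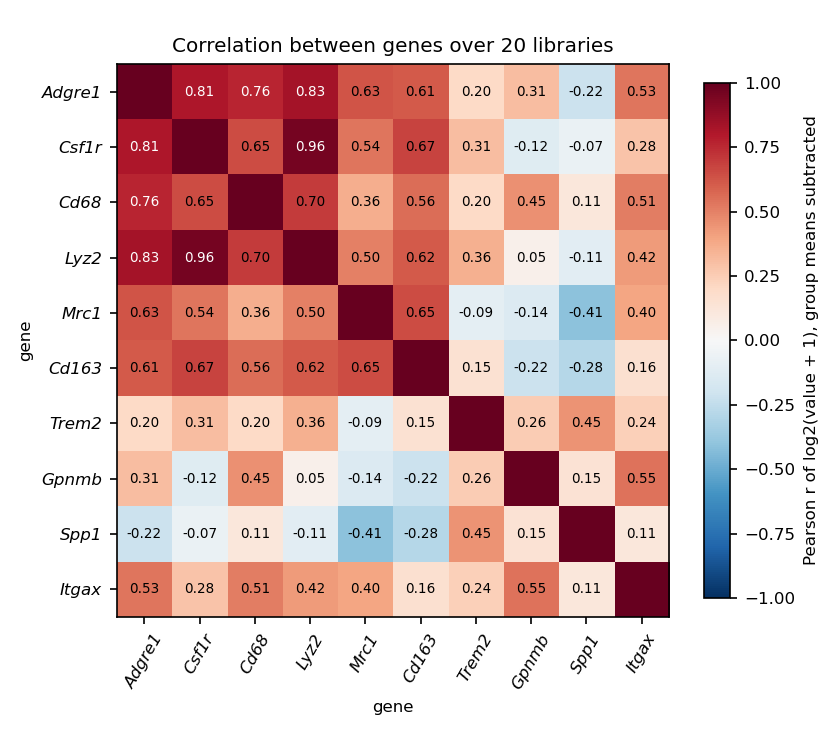
Pearson r of log2(value + 1) between each pair of the 10 genes over 20 libraries with group means subtracted, on a colour scale from -1 to 1 with r printed in each cell. Pairs among Adgre1, Csf1r, Cd68 and Lyz2 have r between 0.65 and 0.96. Cd163 also reaches 0.67 with Csf1r and 0.65 with Mrc1. Spp1 has values between -0.41 and 0.45.

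The genes most like each of the 10 in this gland-to-gland pattern were sought among 15568 genes with a mean value of at least 20, as a description over the 20 libraries. For Adgre1 they were Cd48 (r = 0.957), Pld4 (0.945) and Rac2 (0.944), for Cd68 Ly9 (0.938), Pla2g7 (0.882) and Bcl2a1b (0.880), and for Lyz2 Plek (0.961), Pirb (0.960) and Csf1r (0.958), whose own closest were Lyz2, Plek (0.936) and Pirb (0.931). Most of these are genes of blood-derived immune cells. For Gpnmb they were Mapk3 (0.861) and 4933431E20Rik (0.816), for Spp1 Ttyh3 (0.848), Dmwd (0.830) and Flii (0.820), for Trem2 Dnajb3 (0.738), Guk1 (0.737) and BC024139 (0.734), and for Itgax Pkia (0.854), Thbs2 (0.805) and Plk2 (0.789). None of the genes named for these 4 is a usual macrophage marker. Mrc1 was closest to Smim13 (0.809), Klf2 (0.752) and Stag2 (0.748), and Cd163 to Hpgd (0.839), Ednra (0.790) and Adam15 (0.781), which include the endothelial regulator Klf2. Without control female 5 the r of Lyz2 was 0.904 with Plek, 0.902 with Pirb and 0.895 with Csf1r. That of Csf1r was then 0.831 with Plek and 0.820 with Pirb. That of Cd163 was 0.816 with Hpgd, 0.740 with Ednra and 0.706 with Adam15.

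By genotype 1.75% of all genes passed in females and 1.33% in males. Other genes of lipid-associated macrophages, 24 in the list used, gave 0 calls by genotype in females (4 at an unadjusted p under 0.05, 1 by edgeR and 1 by DESeq2) and 1 in males. That gene was Mmp12, the macrophage elastase, with means of 203 ± 75.9 (SD, n = 6) in control males and 562 ± 138 (n = 4) in males labelled Bmal1 KO, ranges that did not overlap, and a log2 difference of 1.52 ± 0.35 (adjusted p = 0.0296). Its call was lost in 7 of 22 alternatives, among them limma-voom, the replicate block, and leaving out control male 1 or 3 or Bmal1 KO male 2, 3 or 4. By sex in controls 11 of 24 were higher and 1 lower in females, and in the labelled KO 8 and 1, where 13.5% of all genes were higher and 12.9% lower in controls and 12.1% and 10.6% in the labelled KO. The lysosomal acid lipase gene Lipa had means of 9619 ± 1287 in control females and 2294 ± 338 in control males, a log2 difference of 2.07 ± 0.10 (adjusted p = 4.70e-12). The fatty acid receptor gene Cd36 differed by 1.82 ± 0.22 and the cathepsin genes Ctsl and Ctsb by 1.13 ± 0.14 and 0.64 ± 0.09. These genes are also active outside macrophages. The lower gene in both genotypes was Cd63, a tetraspanin of lysosomes (-0.31 in controls, -0.21 in the labelled KO). With age as a covariate, 8 of the list were higher and 1 lower in control females. Of all 26612 genes tested in that fit, 2047 were higher and 1699 lower. Among libraries of 2.4 to 3.7 months the list again gave 8 and 1, beside 1994 higher and 1679 lower of 25980 genes. The median log2 difference of the list was 0.12 in females and 0.22 in males by genotype, and 0.55 in controls and 0.23 in the labelled KO by sex, beside 0, 0.00, -0.05 and -0.07 over all genes.

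The list of TREM2 and CSF1R signalling partners, 19 genes, also held genes of other receptors and of an enzyme. Among these were Itgb3, Cd44, Csf2ra, Csf2rb and Hmox1, which include both genes called by genotype in males. By genotype 1.75% of all genes passed in females and 1.33% in males. Of the 19 genes 0 passed in females (1 at an unadjusted p under 0.05, 0 by edgeR or DESeq2) and 2 in males. Itgb3, an integrin subunit that binds osteopontin, rose by 0.89 ± 0.16 (adjusted p = 0.00338), from 150 ± 22.9 in control males to 280 ± 51.3 in males labelled Bmal1 KO, and passed in all 22 alternatives. Hmox1, which encodes the enzyme that breaks down haem, had means of 3699 ± 747 and 2257 ± 367 and fell by 0.70 ± 0.17 (adjusted p = 0.0469), a call lost in 11 of 22 alternatives. By sex in controls 4 were higher in females, among them the osteopontin receptor gene Cd44 (1.68 ± 0.22) and Csf2rb (2.33 ± 0.31), and 2 lower, Hmox1 (-2.15 ± 0.16) and Csf2ra (-0.60 ± 0.09). These 6 of 19 stand beside 26.4% called among all genes, so the count is no result about the list. The other two higher genes were Irf8, a myeloid transcription factor gene (1.14), and Il34, which encodes a ligand of CSF1R (0.93). These 6 calls also held with age as a covariate, where 3746 of 26612 genes were called. In the labelled KO the same 4 genes were higher, and Hmox1, Csf2ra and Itgb3 were lower in females. These are 7 of 19 beside 22.8% of all genes, 12.1% higher and 10.6% lower.

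Of 24 other genes of tissue-resident macrophages 1 passed by genotype in females, Gas6, a ligand of the phagocytic receptor MERTK, and 0 passed in males (0 also at an unadjusted p under 0.05 and by edgeR or DESeq2). Of all genes 1.75% passed in females and 1.33% in males. Gas6 had means of 5698 ± 1134 in control females and 3528 ± 692 in females labelled Bmal1 KO, with overlapping ranges, and fell by 0.69 ± 0.13 (adjusted p = 0.00685), in all 22 alternatives. Gas6 is also made by cells other than macrophages. By sex in controls Gas6 (1.29 ± 0.13), Cbr2 (1.79 ± 0.40), F13a1 and Mpeg1 (0.56) were higher in females and Mertk was lower (-0.37 ± 0.09), which is 5 of 24 beside 26.4% of all genes. With age as a covariate only Gas6 of the list passed there, where 3746 of 26612 genes passed. Among libraries of 2.4 to 3.7 months Gas6 and Mertk passed, where 3673 of 25980 genes did. In the labelled KO 2 were higher, Gas6 and Itgam, and Pf4 was lower (-0.97 ± 0.23), which is 3 of 24 beside 22.8% of all genes. The complement, Lyve1 and Folr2 genes of the list were not among the calls by genotype.

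Genes of monocytes, dendritic cells and neutrophils, 17 tested of 18, gave 0 calls by genotype in either sex in limma, edgeR and DESeq2 (0 at an unadjusted p under 0.05 in females and 1 in males). By sex in controls 5 of 17 were higher in females, where 26.4% of all genes were called and 13.5% were higher. They were Xcr1 (1.70 ± 0.37), Flt3 (1.44 ± 0.32), Ccr2 (1.06 ± 0.29), Chil3 (3.84 ± 1.21) and S100a9 (1.05). Of these, Xcr1, Flt3 and Ccr2 passed with age as a covariate, where 2047 of 26612 genes were called higher. In the labelled KO 0 passed, 5 had an unadjusted p under 0.05, and edgeR and DESeq2 each called 1. The MITF and TFE family and lysosome list, 20 genes, gave 0 calls by genotype, where 1.75% of all genes passed in females and 1.33% in males. At an unadjusted p under 0.05 there were 4 in females and 3 in males, with 0 by edgeR or DESeq2. Gpnmb is known as a target of MITF. Mitf itself was at 0.44 ± 0.16 by genotype in females (adjusted p = 0.231). By sex in controls 6 of the 20 were called, 4 higher and 2 lower in females, beside 26.4% of all genes. In the labelled KO 6 of the 20 were called, all higher in females, beside 22.8% of all genes called and 12.1% higher. Mitf was among them, at 0.65 ± 0.17 (adjusted p = 0.00835).

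Markers of other cells that could carry these genes were read alongside. Melanocytes also express Gpnmb, and the summed level of 5 melanocyte genes ranged from 17.2 to 24.7 in control females, 18.3 to 23.4 in labelled KO females, 20.8 to 40.1 in control males and 16.2 to 26.0 in labelled KO males. Mlana was at 0 in all males, and 0 of 3 tested were called by genotype (1 at an unadjusted p under 0.05 in females, 0 by edgeR or DESeq2). In the comparison of control females with control males, where Gpnmb was higher in females, the melanocyte gene Dct was higher in females by 2.24 ± 0.37 (adjusted p = 0.000114) and Tyr lower by -1.38 ± 0.36 (adjusted p = 0.00710). Dct was also higher in females among the labelled KO, by 1.29 ± 0.41 (adjusted p = 0.0269). Its mean level was 4.83 in control females and 0.165 in control males, so these calls rest on few reads. DESeq2 called 2 of the melanocyte genes by sex in controls and 0 in the labelled KO, and edgeR called 0 in each. The part of melanocytes in the Gpnmb values was not tested. The 6 kidney genes summed to at most 3.82 in any library, with Umod and Slc34a1 at 0 throughout; kidney tubule is known to make Spp1. Adipocyte genes, 7 in the list, were present in every group, summing to 1938 to 10366 in control females, 2697 to 6101 in labelled KO females, 1985 to 4057 in control males and 2871 to 4339 in labelled KO males, with 0 called in any of the 4 comparisons by limma or edgeR (1 at an unadjusted p under 0.05 in each genotype comparison, and 1 by DESeq2 in males). Their part in the results was not tested. In control female 5, monocyte and dendritic cell genes summed to 32990 and lymphocyte genes to 430, the highest of the 5 control females, beside its high Lyz2 and Csf1r. Its tissue-resident (23527), TREM2 and CSF1R partner (14786) and lipid-associated (147239) sums were also the highest of the control females. In Bmal1 KO female 1, monocyte and dendritic cell genes summed to 26886, against 16888 in the next library of its group. The lipid-associated (152864), TREM2 and CSF1R partner (11242) and tissue-resident (17343) sums were also the highest of its group there, beside its high Gpnmb and Trem2. The part of these cells in the results was not tested. Endothelial, lymphocyte, Schwann and chromaffin cell lists gave 0 calls by genotype in limma and edgeR, with 1, 3, 1 and 1 genes at an unadjusted p under 0.05 in females and 3, 1, 0 and 1 in males. DESeq2 called lymphocyte genes alone among these, 2 in females and 1 in males. By sex 1 of 8 lymphocyte genes was higher in control females, where 26.4% of all genes were called. Among the labelled KO, where 22.8% were called, 3 of 8 lymphocyte and 1 of 5 chromaffin cell genes were higher in females. There 2 of 6 Schwann cell genes were lower. By genotype in males 2 of the 6 adrenal cortex genes were called, where 1.33% of all genes passed. Star and Cyp11a1 fell, by 0.69 ± 0.15 (adjusted p = 0.0238) and 0.71 ± 0.16 (adjusted p = 0.0321), beside the rise of Gpnmb. Star lost its call in 5 of 22 alternatives and Cyp11a1 in 8. The cortex list did not move as a whole in males, where 3 of the 6 had a log2 difference above 0. In females 0 of the 6 were above 0, and 0 were called by limma or edgeR and 1 by DESeq2. By sex in controls 5 of the 6 cortex genes were called, beside 26.4% of all genes. Nr5a1 (0.95 ± 0.15), Cyp11b1 (0.92 ± 0.18), Hsd3b1 (0.90 ± 0.12) and Mc2r (0.82 ± 0.11) were higher in females and Cyp11a1 (-0.69 ± 0.15) lower. In the labelled KO Nr5a1, Hsd3b1 and Mc2r were higher in females, 3 of 6 beside 22.8% of all genes. The part of cortex cells in the sex differences was not tested.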

How the data were processed

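Per the labels' protocols, RNA came from whole adrenals by a Direct-zol kit, and a TruSeq RNA kit was used for the libraries. DESeq2, featureCounts, Salmon, MultiQC and FastQC, and the builds GRCm38 and mm10, are named in the submitters' processing notes; the aligner, versions, strand setting and the role of each tool are not given in the sources used. The authors deposited 1 table of normalised signal, 47729 genes by 20 libraries, of which 13350 genes were at 0 throughout. Within each library every value was a whole multiple of 1 step (100% within 0.001 of a read), and reads were recovered by dividing by it. Of the columns, 0 had no sample.

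The main test was limma-trend (limma 3.58.1, R 4.3.3) on log2(value + 1). Genes had to reach a value of 1 in 4 libraries or more, which left 26612, and the model held the 4 group means over all 20 libraries. P-values were adjusted by Benjamini-Hochberg over all genes tested; a call is an adjusted p under 0.05. Log2 changes understate those of genes with low counts. Errors are SE for differences and SD for means. Alternatives were edgeR 4.0.16 and DESeq2 1.42.0 on recovered reads, limma-voom, TMM scaling, other pseudocounts and filters, age as a covariate, subsets of libraries and leaving out each library. The fit was tested on simulated data. Correlations used 100000 permutations within groups, for which 1e-05 is the smallest p (numpy 2.4.6, Python 3.11.15). The 3-read floor covers counting error only. Locations and exon lengths are from GENCODE M21.

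All 10 genes were named, with the called genes of each list (at most 4 per comparison, by p) or else the 1 with the smallest p by genotype, and the 3 genes closest in pattern to each, of which 1 is not reported here; Cd63, Irf8, Il34, Mpeg1 and S100a9 were added after their values were seen. Star and Cyp11a1 come from the cortex list; Arntl and Cry1 check the labels. The genes and lists were chosen with earlier results of these data known.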

Additional observations from a re-analysis of the deposited data

Results flagged for a closer look

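In 5 of the 40 combinations of a gene and a group, 1 library lay far from the rest of its group, by Dixon's criterion on the normalised counts. The criterion flags about 1 in 20 by chance only where values are normally spread, which was not checked. The log2 values used in the tests were not examined in this way. Gpnmb in control male 6, at 2.21 against a next value of 17.8, was not flagged on the scale of counts. Bmal1 KO female 1 was high for Gpnmb, at 769 against a next value of 222, and for Trem2, at 339 against 220. Control female 5 was high for Csf1r, at 2313 against 1074, for Cd163, at 59.7 against 22.9, and for Lyz2, at 21925 against 7555. Bmal1 KO female 1 was also the highest of its group for Cd68, Adgre1, Lyz2 and Itgax, and control female 5 for Cd68, Adgre1, Mrc1, Trem2 and Itgax.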

How the results depend on the processing

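Over 1190 values of the 10 genes under alternatives, 1171 stayed on the same side of the threshold, 16 lost a call, 3 gained one and 0 reversed; 106 differences without a call changed sign. The count of called genes by genotype in males, 1, was 0 with limma-voom, 0 among libraries of 2.4 to 3.7 months and 0 with a replicate block, and ran from 0 to 1 when single libraries were left out. The labels do not say what a replicate number shares. Deviations of same-numbered libraries correlated between 0.0399 and 0.294 in females and between -0.126 and -0.0112 in males. Libraries of different numbers were not compared in this way, so whether the numbers pair the samples was not settled. The replicate block changed no other count of called genes among the 10. By sex in controls the count of 4 was 2 with age as a covariate and 2 among libraries of 2.4 to 3.7 months. Correlated pairs, 4, ran from 3 to 9 over left-out libraries, an alternative added after the data were seen. Among list genes 101 of 1617 values lost a call and 3 gained one. Over all genes, DESeq2 called 906 in females, 730 in males and 70 for the difference of effects, where limma called 467, 354 and 8; limma-voom called 3 for the last, and age as a covariate 0, with 3746 by sex in controls against 7023. Libraries of 2.4 to 3.7 months gave 223, 187, 0 and 3673, and the 2 groups alone 219 in males; the cause was not tested, except that the last 2 use fewer samples. Low reads limit Cd163 and, in control males, Gpnmb.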
